A study of Mus musculus with 6 samples.

Results

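Semaphorins, plexins and neuropilins were measured in the cerebral cortex of newborn wild type and Fezf2 KO mice. The 31 genes were taken by symbol from a deposited table of 23016 genes, and comprised 20 semaphorins, 9 plexins and 2 neuropilins. Cortex was dissected at postnatal day 0 from 3 wild type (Fezf2+/+) and 3 Fezf2 KO (Fezf2-/-) pups of crosses between heterozygous mice, and total RNA of each brain gave 1 TruSeq library. For both genotypes, libraries 1 and 2 are pups of litter m1 and library 3 is a pup of litter m2. Fezf2 encodes a transcription factor needed by deep-layer projection neurons, and the comparison asks which genes differ in expression in cortex that lacks it. Strain, sex and the deleted part of the gene are not given in the sources used here.

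Semaphorins are ligands that steer growing axons, migrating neurons, dendrites and blood vessels. Class 3 members are secreted and mostly act through a neuropilin, which binds the ligand, and an A plexin, which passes the signal into the cell. Classes 4 to 6 are transmembrane proteins, class 7 is held by a lipid anchor, and most of these bind plexins directly. Plexins carry an intracellular domain that inactivates Ras-family GTPases, and collapse or turning of the growth cone follows. In developing cortex these proteins are known for orienting pyramidal neurons and for guiding callosal and corticofugal axons.

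The genotype labels held for Fezf2 itself, with a normalised read count from 5030 to 5928 in wild type and from 1377 to 1989 in Fezf2 KO libraries (log2 -1.75, SE 0.129, limma adjusted p = 0.000832). Libraries held 44978380 to 52872577 gene reads. The dorsal cortex markers Emx1, Neurod2, Neurod6, Tbr1 and Slc17a7 were abundant in each library. Some libraries stood apart in tissue content. Wild type 1 had a summed level of 7776 over 9 meningeal fibroblast genes against 814 to 1369 elsewhere, and Fezf2 KO 1 had 9745 over 6 choroid plexus genes against 65 to 137 elsewhere. The 13 striatal genes summed to 13543 to 17690 in wild type and to 5708, 11553 and 7105 in Fezf2 KO 1, 2 and 3, so every Fezf2 KO library was lower. In bulk tissue fewer cells of a type and less RNA per cell cannot be told apart. The part of these differences in the results below was not tested, except where a value without a library or with a covariate is given.

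The 31 genes spanned a wide range of expression in wild type cortex. To set genes side by side, normalised counts were divided by exon length from a GRCm38 annotation, which may differ from the mm9 gene models that were counted. Per kb of exon, Sema7a was the most abundant at 4270 ± 353 (SD, n = 3), followed by Sema6b at 3400 ± 161. Sema7a encodes the lipid-anchored class 7 ligand of beta1 integrins and plexin C1, and Sema6b encodes a transmembrane ligand of A plexins. Plxna1 (2570 ± 169 per kb), Plxnd1 (2330 ± 325), Sema4c (2200 ± 111) and Sema6c (2170 ± 206) came next, and each overlapped its neighbour in this order.

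Secreted semaphorins were mostly at the low end. Sema3f, the neuropilin-2 ligand, was the highest class 3 member at 927 ± 44.5 per kb, while Sema3a had 73.4 ± 3.97, Sema3e had 28.1 ± 1.75, Sema3g had 18.9 ± 3.29 and Sema3d had 8.19 ± 3.64. Plxnb3, an oligodendrocyte-lineage plexin, was the lowest of all at 7.68 ± 0.713 per kb and overlapped Sema3d. The neuropilins lay in the lower middle, Nrp1 at 277 ± 23.6 and Nrp2 at 173 ± 97.4 per kb. Sema7a and Sema6b also led the order in Fezf2 KO cortex. Plxna4 stood at place 11 in wild type and at place 9 in Fezf2 KO, and Sema3c at places 20 and 24.

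**Figure D1:**
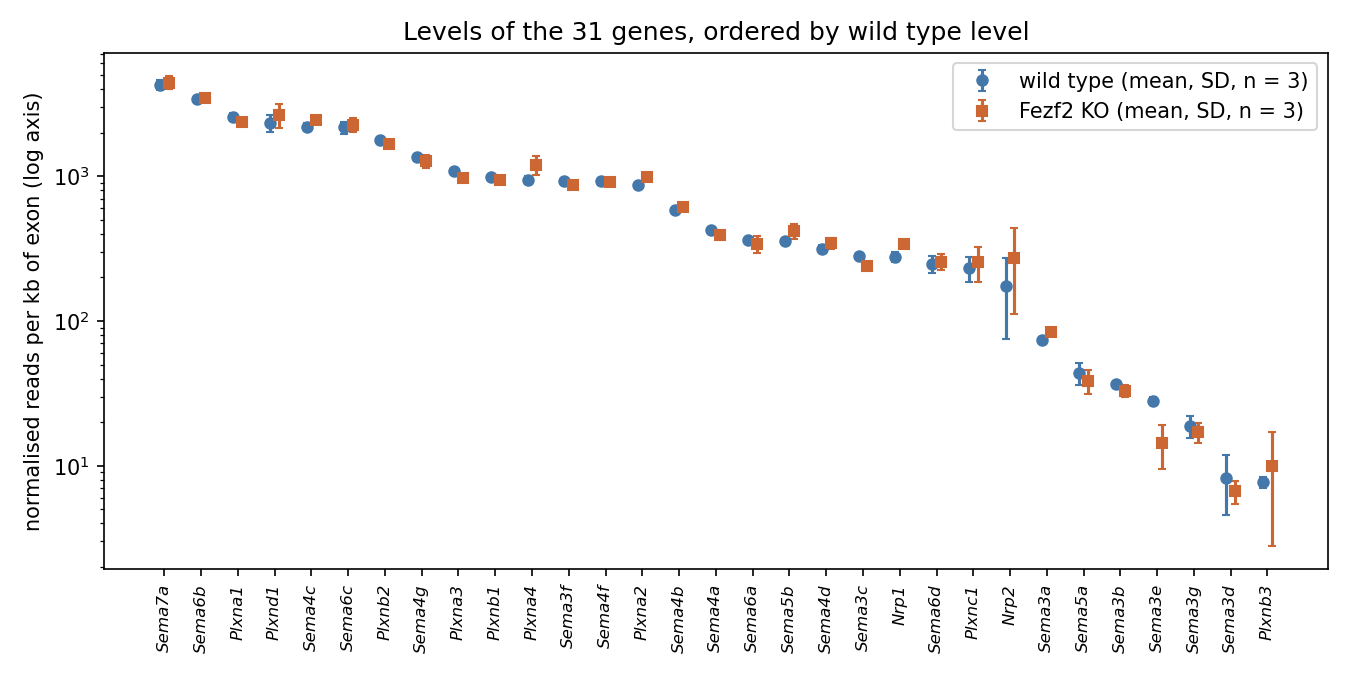
Level of each of the 31 genes as normalised reads per kb of exon (log axis), with wild type in circles and Fezf2 KO in squares (mean and SD, n = 3 each), ordered by the wild type mean. Levels run from 4270 per kb for Sema7a to 7.68 per kb for Plxnb3 in wild type, and the markers of the genotypes part most for Sema3e.

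None of the 31 genes passed the limma test for a difference between genotypes. All 31 had enough reads to be tested, and 0 had a limma adjusted p under 0.05, against 0.712% of the 17557 genes tested (0.404% higher and 0.308% lower in Fezf2 KO). By edgeR with TMM factors 0 members were called (0.689% of genes). DESeq2 called 3 (9.68% of members, against 2.3% of genes), namely Sema3e lower and Plxna4 and Nrp1 higher. In limma 0 members were called with litter as a replicate block (0.786% of genes) and 0 without the first replicate of both genotypes (0.226%). At an unadjusted limma p under 0.05 there were 9 members, or 29% of the 31, where 9.03% of genes tested reach that level. Of these 6 were higher (19.4% of members against 4.66% of genes) and 3 lower (9.68% against 4.37%). The shares over all genes tested, here and below, were not matched to the members for read count.

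In 12 of the 31 genes (38.7%) the genotypes did not overlap, where 14.5% of genes tested do not. The 6 with higher values in Fezf2 KO cortex (7.6% of genes tested) were Sema3a, Sema4c, Sema5b, Plxna2, Plxna4 and Nrp1, and the 6 with lower values (6.85%) were Sema3b, Sema3c, Sema3e, Plxna1, Plxna3 and Plxnb2. Apart from Sema3e, all 12 differed by under 1.5-fold in the estimate. The estimated log2 change was under 0.5 in size in 29 members (93.5%, against 94.7% of genes tested), with a median size of 0.14 in members and 0.08 in all genes. The signed median was 0.04 (16 members positive and 15 negative), against 0.00 over all genes tested.

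The 95% interval of the log2 change, taken gene by gene, lay within 1.5-fold in either direction for 26 of the 31. The 5 others were Sema3d, Sema3e, Plxnb3, Plxnc1 and Nrp2, and for Sema3e, Plxnb3 and Nrp2 it reached beyond 2-fold. These intervals come from the fit with genotype alone. With the striatal mean added, the estimates of Plxnb3 (1.37), Plxnc1 (0.73), Plxnd1 (0.59) and Nrp2 (2.18) were beyond 1.5-fold, and none had a limma adjusted p under 0.05.

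**Figure D2:**
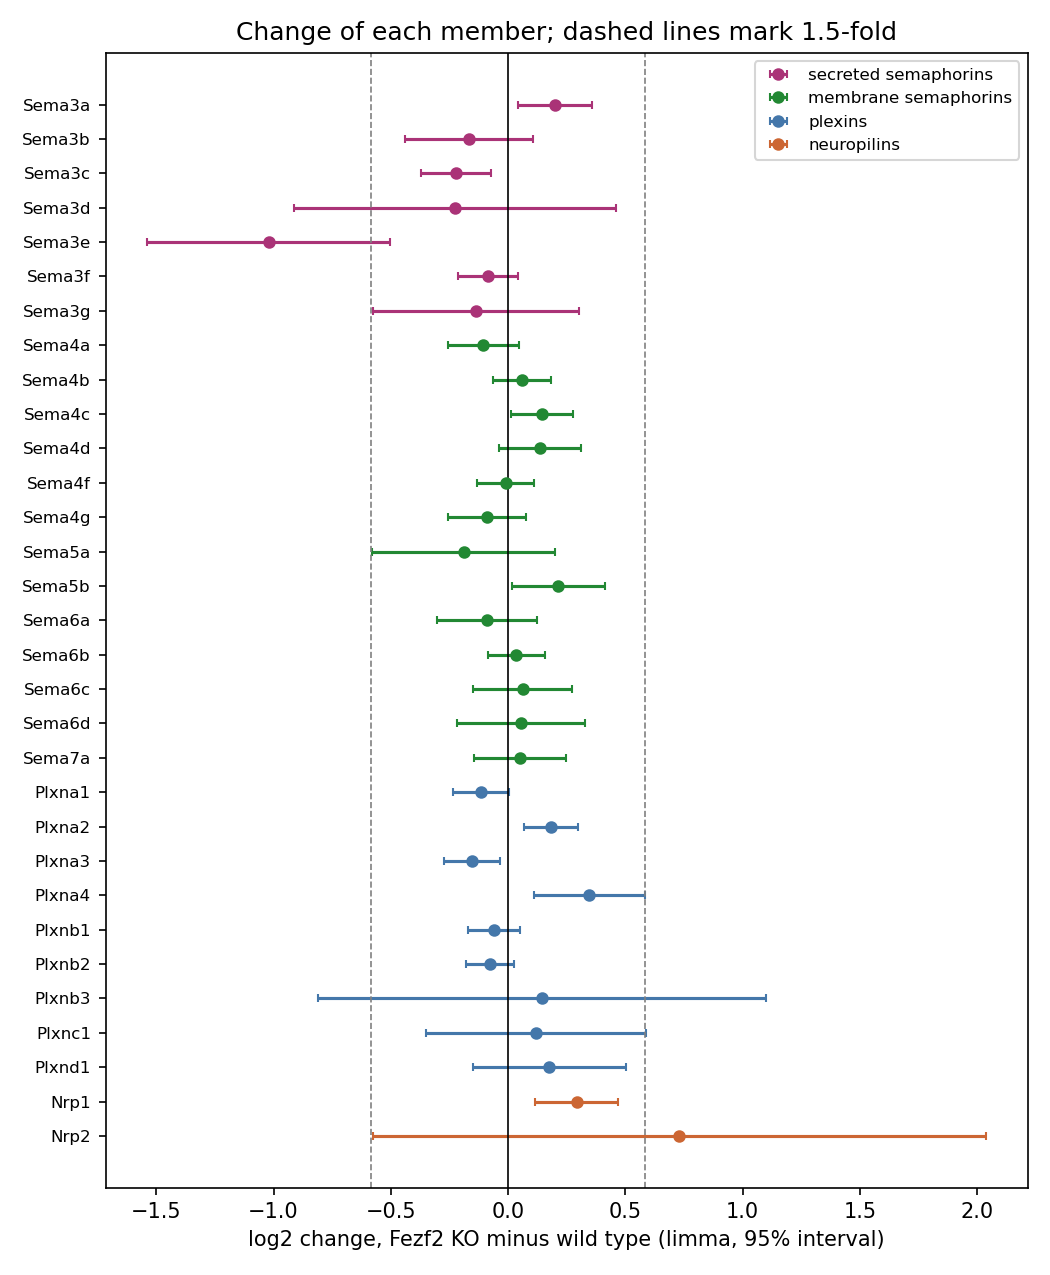
Log2 change of each gene in Fezf2 KO against wild type cortex with its 95% interval (limma on log2 of the normalised count plus 1, 3 libraries per genotype), coloured by family. Dashed lines mark 1.5-fold. The point of Sema3e lies at -1.02, and the interval of Nrp2, from -0.58 to 2.04, is the widest.

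Among the secreted ligands, Sema3e had the largest estimated difference of all 31 members. It encodes a ligand that binds plexin D1 without a neuropilin. Wild type 1, 2 and 3 held 267, 273 and 242 normalised reads of it, against 90.9, 181 and 127 for Fezf2 KO 1, 2 and 3. All Fezf2 KO libraries lay below all wild type libraries, with Fezf2 KO 2 the closest to them. The means were 260.7 ± 16.2 and 132.9 ± 45.1 (SD, n = 3), a log2 change of -1.02 (SE 0.225, 95% interval -1.54 to -0.50) with a limma adjusted p of 0.116. DESeq2 gave an adjusted p of 0.00491, and limma gave 0.0281 without Fezf2 KO 2 (log2 -1.27, 0.734% of genes called) and 0.154 to 0.323 without any 1 of the other libraries. Within litter m1 the log2 change was -1.07 and in the single pair of litter m2 it was -0.92.

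Sema3e varied along with the means of the layer 5 and striatal marker lists. The centred mean log2 level of 9 layer 5 subcerebral genes, Fezf2 among them, was -0.72, -0.17 and -0.37 in Fezf2 KO 1, 2 and 3, against 0.38 to 0.45 in wild type. That of the striatal genes was -1.36, 0.27 and -0.63, against 0.35 to 0.85. Both lists, like Sema3e, were lowest in Fezf2 KO 1 and nearest to wild type in Fezf2 KO 2. The mean of 7 corticothalamic genes was also nearest in Fezf2 KO 2 but lowest in Fezf2 KO 3 (-0.55, -0.38 and -0.62). Its called genes differed in this. Foxp2 (301, 512 and 325 in Fezf2 KO 1, 2 and 3) and Syt6 (663, 1140 and 710) were lowest in Fezf2 KO 1. Tle4 (1941, 2134 and 1933) and Zfpm2 (360, 371 and 338) were lowest in Fezf2 KO 3. When limma was also given the striatal mean, which itself differs between genotypes, Sema3e had a log2 change of -0.37 (SE 0.176, adjusted p = 0.677). Without both wild type 1 and Fezf2 KO 1 it was -0.76 (limma adjusted p = 0.333).

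**Figure D3:**
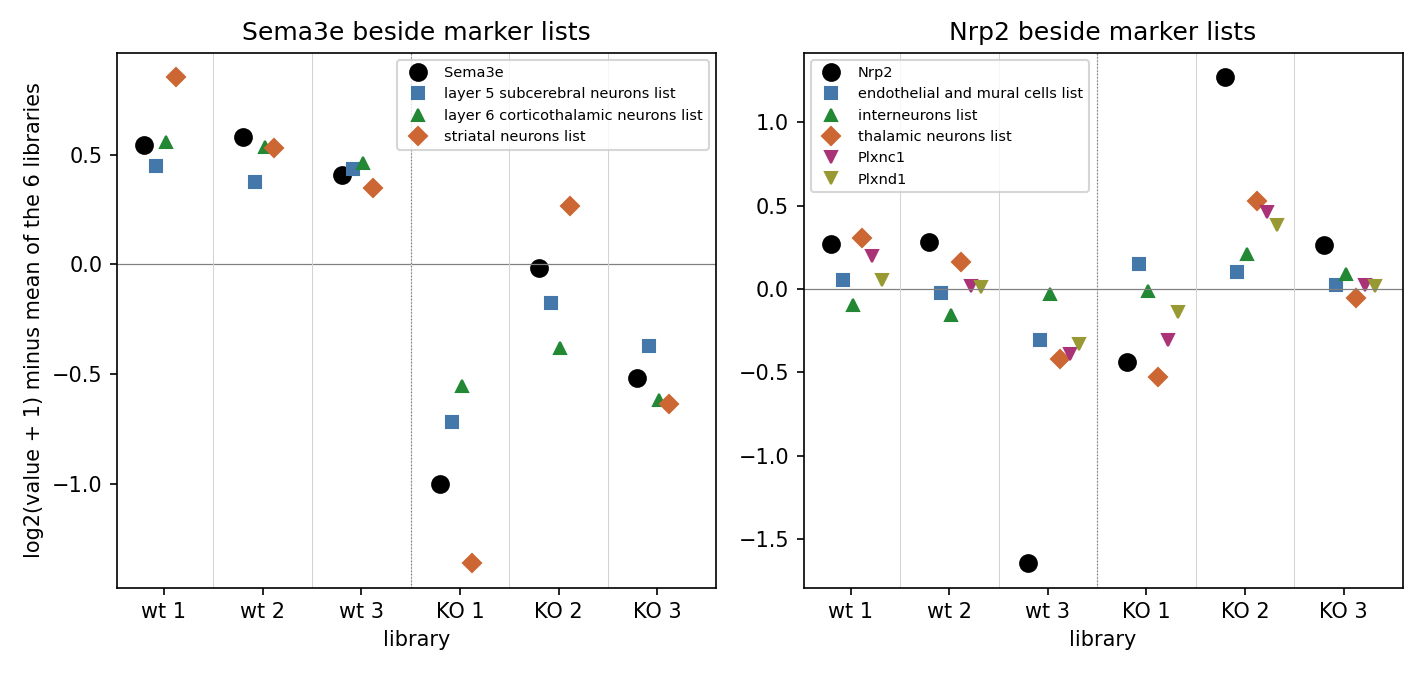
Left, Sema3e beside the mean of the layer 5, corticothalamic and striatal marker lists; right, Nrp2, Plxnc1 and Plxnd1 beside the endothelial, interneuron and thalamic lists, the right-hand lists being chosen after values were seen. The vertical axis is log2(normalised count + 1) minus the mean of the 6 libraries, and each symbol is 1 library (wt, wild type; KO, Fezf2 KO). Sema3e, the layer 5 list and the striatal list have their lowest point in KO 1, and Nrp2 has its lowest in wt 3 and its highest in KO 2.

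Sema3c, a ligand that attracts callosal axons through neuropilin-1, showed small differences with little spread. It had 1985, 2017 and 1984 normalised reads in wild type and 1824, 1596 and 1718 in Fezf2 KO 1, 2 and 3. The groups did not overlap, and the log2 change was -0.22 (SE 0.065, limma adjusted p = 0.270), with -0.23 within litter m1 and -0.21 in litter m2. DESeq2 gave an adjusted p of 0.0984.

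Sema3a, which repels cortical axons and attracts apical dendrites through neuropilin-1, was the single class 3 member with a positive estimate. Its values were 1061, 1038 and 956 in wild type and 1163, 1202 and 1140 in Fezf2 KO 1, 2 and 3. They did not overlap (log2 0.20, SE 0.069, limma adjusted p = 0.386). The 4 other class 3 genes had estimates from -0.23 to -0.09. Summed over all 7 class 3 genes, the level was 8061 to 8722 in wild type and 7585 to 8045 in Fezf2 KO.

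Sema3b had 172.17 to 178.88 in wild type and 142.18 to 172.13 in Fezf2 KO libraries, so the groups were apart by less than the value of a single read (log2 -0.17, SE 0.118). Sema3f had 4818 ± 231 in wild type and 4537 ± 175 in Fezf2 KO, with overlapping libraries. Sema3d had 106, 46.3 and 59.3 in wild type and 51.2, 51.2 and 68.9 in Fezf2 KO libraries. Its single high value was in wild type 1, the library with the high meningeal genes, and without that library the log2 change turned from -0.23 to 0.11. Sema3g, known from endothelial cells, had 69.6 to 99.2 in wild type and 63.8 to 86.1 in Fezf2 KO.

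Of the 13 membrane semaphorins, 0 passed the limma test (0.712% of genes tested) and 2 had an unadjusted p under 0.05 (9.03% of genes tested). The median log2 change was 0.05, with a range from -0.19 (Sema5a) to 0.21 (Sema5b). Sema5a had -0.030 when Fezf2 KO 3 was dropped, -0.090 for wild type 2, -0.31 for Fezf2 KO 2 and -0.34 for wild type 3. Sema5b encodes a transmembrane protein with thrombospondin repeats that inhibits neurite growth. It had 2682, 2487 and 2431 in wild type and 2717, 3343 and 2783 in Fezf2 KO 1, 2 and 3 (log2 0.21, SE 0.086, limma adjusted p = 0.499). The groups did not overlap, with wild type 1 and Fezf2 KO 1 close to each other. The log2 change was 0.12 without Fezf2 KO 2 and 0.44 with the striatal mean in the fit.

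Sema4c, a plexin B2 ligand, had 9782 to 10681 in wild type and 10729 to 11896 in Fezf2 KO libraries. The groups nearly met (log2 0.14, SE 0.057, limma adjusted p = 0.491). Sema4d, the plexin B1 ligand, overlapped between genotypes at 2404 ± 146 and 2644 ± 212. The class 6 genes, ligands of A plexins, all had intervals that included 0: Sema6a had a log2 change of -0.09, Sema6b 0.03, Sema6c 0.06 and Sema6d 0.05. Sema7a, the most abundant ligand per kb, had 14086 ± 1164 and 14596 ± 1487, with a 95% interval of the log2 change from -0.15 to 0.25. The other class 4 genes gave estimates of -0.10 (Sema4a), 0.06 (Sema4b), -0.01 (Sema4f) and -0.09 (Sema4g), none with groups apart.

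The A plexins, the signalling receptors of class 3 and class 6 semaphorins, were split in sign. Each of the 4 had separate groups, Plxna2 and Plxna4 higher and Plxna1 and Plxna3 lower in Fezf2 KO cortex, and 0 of 4 passed limma. Over all genes tested 14.5% have separate groups, 7.6% higher and 6.85% lower. Their summed level was 57790 to 62137 in wild type and 58337 to 66081 in Fezf2 KO, so the groups overlapped for the sum.

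Plxna4, with Plxna3 a receptor for Sema3a complexes, had the largest difference of the 4. Its values were 13823, 13613 and 12303 in wild type and 19296, 17303 and 14258 in Fezf2 KO 1, 2 and 3. The Fezf2 KO libraries were spread widely, and Fezf2 KO 3 lay just above the highest wild type library. The log2 change was 0.35 (SE 0.103, 95% interval 0.11 to 0.58, limma adjusted p = 0.280), with 0.41 within litter m1 and 0.21 in litter m2. DESeq2 gave an adjusted p of 0.0443, and limma without any 1 library gave 0.0693 to 0.589.

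Plxna2, the receptor of Sema6a in several brain regions, had 14958, 15083 and 14644 in wild type and 17586, 17426 and 15781 in Fezf2 KO 1, 2 and 3. Its wild type libraries were tightly grouped (log2 0.18, SE 0.050, limma adjusted p = 0.223). In litter m1 the log2 change was 0.22 and in litter m2 it was 0.11. Plxna3 had 8726, 8442 and 8349 in wild type and 7933, 7858 and 7164 in Fezf2 KO (log2 -0.15, SE 0.052, limma adjusted p = 0.366), with -0.12 in litter m1 and -0.22 in litter m2. Plxna1 had 22216 to 24999 in wild type and 21134 to 21857 in Fezf2 KO (log2 -0.12, limma adjusted p = 0.562).

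The B plexins, receptors of class 4 semaphorins that couple to RhoA, differed little. Plxnb2 had 13722 ± 635 in wild type and 12986 ± 98.5 in Fezf2 KO (log2 -0.08, SE 0.044), and the groups did not overlap. Plxnb1 had 9462 ± 314 and 9080 ± 393 (log2 -0.06, SE 0.049). An assembled transcript antisense to Plxnb1 held 511 to 561 reads in wild type and 573 to 723 in Fezf2 KO, and reads of the pair cannot be told apart, since no source used here says whether counting used strand. Plxnb3 had 55.2, 47.1 and 47.3 in wild type and 33.3, 118 and 42.4 in Fezf2 KO, where replicate 2 alone exceeded wild type. Without that library its log2 change turned from 0.15 to -0.40.

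**Figure D4:**
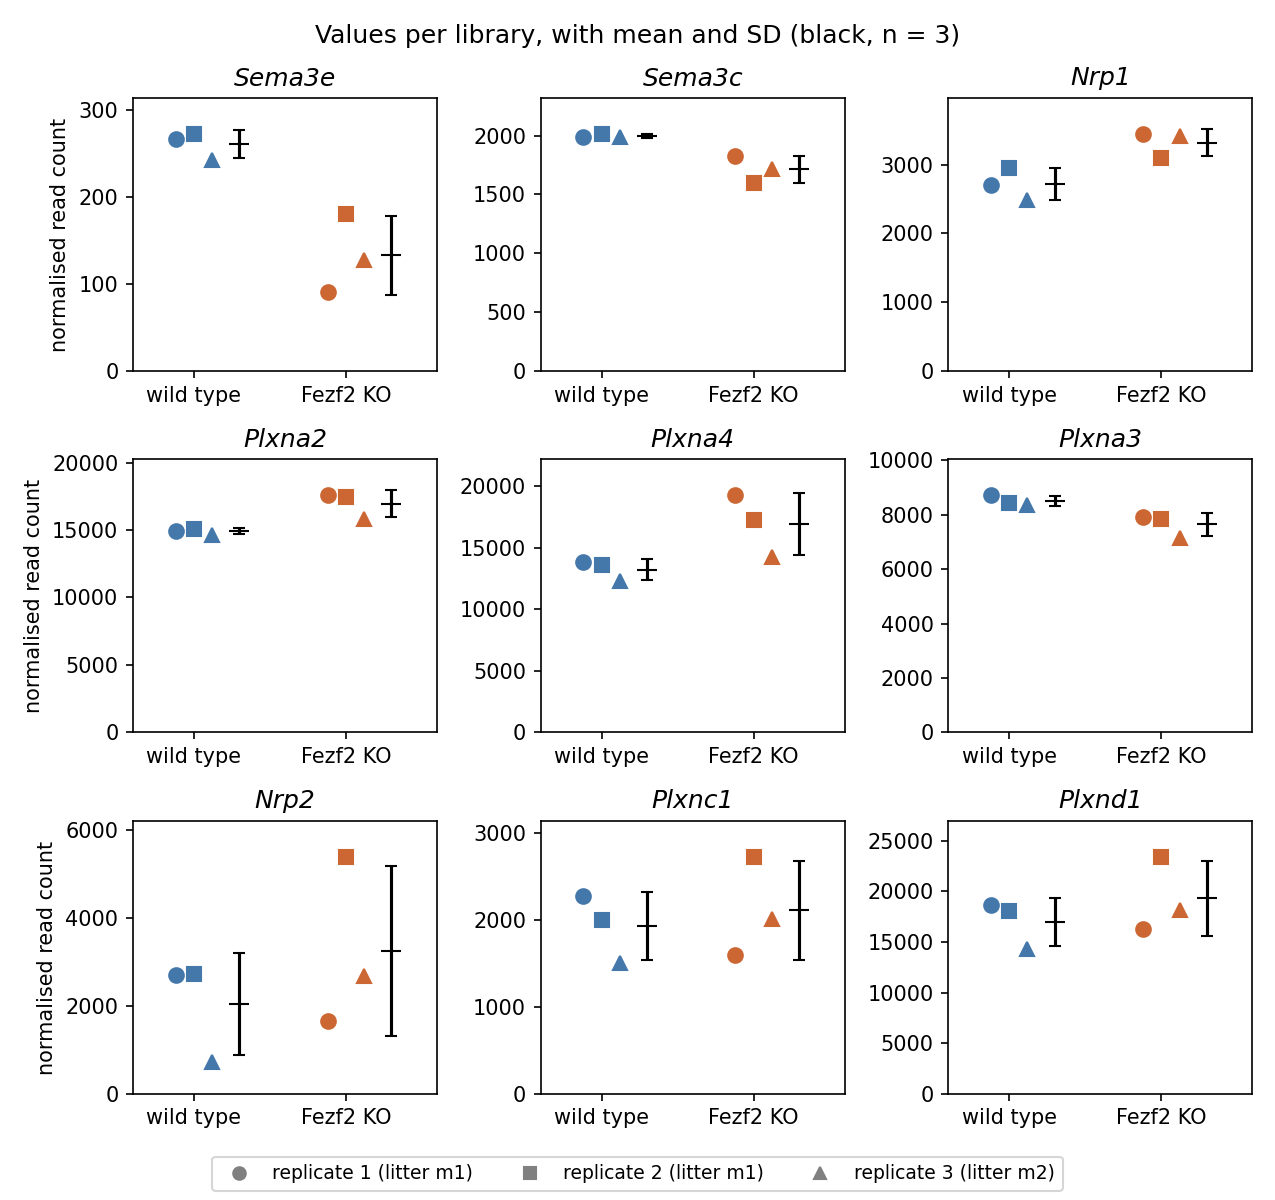
Normalised read count in each library for the 6 genes with the smallest limma p (Sema3e, Sema3c, Nrp1, Plxna2, Plxna4 and Plxna3) and for Nrp2, Plxnc1 and Plxnd1, with axes from 0. Marker shapes give the replicate and litter, and black bars give the mean and SD (n = 3). The groups are separate in the upper 6 panels and overlap in the lower 3, where wild type 3 is the lowest and Fezf2 KO 2 the highest library.

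Nrp1, the neuropilin that binds Sema3a and also VEGF, had 2701, 2950 and 2488 in wild type and 3452, 3090 and 3411 in Fezf2 KO 1, 2 and 3. The groups did not overlap, and the means were 2713 ± 231 and 3318 ± 198 (SD, n = 3). The log2 change was 0.29 (SE 0.076, 95% interval 0.12 to 0.47, limma adjusted p = 0.205), with 0.21 within litter m1 and 0.46 in litter m2. DESeq2 gave an adjusted p of 0.0426, and limma without any 1 library gave 0.168 to 0.458. Endothelial and mural genes, which mark another cell type with neuropilin-1, summed to 12052 to 15274 in wild type and 14928 to 16384 in Fezf2 KO (12 tested, median log2 0.16, 0 passed). These sums overlapped between genotypes. Sums higher in every Fezf2 KO library were found for 8 interneuron genes (34238 to 37592 against 41214 to 43332). The same held for 8 callosal and upper layer genes (69244 to 73849 against 77372 to 89675). In each of these lists limma called 1 gene (0.712% of genes tested). They were Npy (3910 to 4597 against 6186 to 8299) and Mdga1 (9382 to 11344 against 16186 to 17989). With that gene taken out, the sums of either list overlapped between genotypes, narrowly for the interneuron list. Other genes of the lists also had separate groups, higher in Fezf2 KO (7.6% of genes tested). They were Dlx2 (4895 to 5291 against 5690 to 5974) and Lhx6 (6807 to 7429 against 7868 to 8590), and in the callosal list Cux1 and Lpl. The remaining genes of both lists overlapped. The 7 dorsal cortex genes likewise summed higher in every Fezf2 KO library (107712 to 115160 against 115979 to 132833). The part of these cell types in the Nrp1 values was not tested.

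Nrp2, the neuropilin for Sema3f and Sema3c, was the most variable member within a genotype. It had 2699, 2724 and 715 in wild type and 1654, 5401 and 2686 in Fezf2 KO 1, 2 and 3, a 7.55-fold range over the 6 libraries. Wild type 3 was the lowest, Fezf2 KO 2 the highest, and the groups overlapped. Its SD within genotypes was 0.99 on the log2 scale, and 3 of the 7906 genes whose mean reached 1000 normalised reads had a larger one (median 0.08). The log2 change was 0.73 (SE 0.568, 95% interval -0.58 to 2.04, limma adjusted p = 0.819). It was 0.14 within litter m1, 1.91 in the single pair of litter m2, 0.09 without wild type 3 and 0.28 without Fezf2 KO 2.

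Plxnc1, the receptor of Sema7a, and Plxnd1, the receptor of Sema3e and Sema4a, varied in the same libraries as Nrp2. Plxnc1 had 2277, 2008 and 1512 in wild type and 1605, 2733 and 2013 in Fezf2 KO 1, 2 and 3. Plxnd1 had 18638, 18090 and 14276 in wild type and 16301, 23415 and 18189 in Fezf2 KO. For all 3 genes wild type 3 was the lowest library and Fezf2 KO 2 the highest, with Fezf2 KO 1 the lowest of its genotype. Their limma changes were 0.12 (SE 0.204) for Plxnc1 and 0.18 (SE 0.142) for Plxnd1, and with the striatal mean added 0.73 (SE 0.147), 0.59 (SE 0.111) and, for Nrp2, 2.18 (SE 0.594), with limma adjusted p from 0.155 to 0.318. The change of Plxnd1 was 0.028 without Fezf2 KO 2, 0.055 without wild type 3 and 0.29 without Fezf2 KO 1, with 0.089 in litter m1 and 0.35 in litter m2. That of Plxnc1 turned to -0.049 without wild type 3 and -0.084 without Fezf2 KO 2. The centred mean log2 level of 12 endothelial and mural genes was 0.06, -0.02 and -0.31 in wild type and 0.15, 0.10 and 0.02 in Fezf2 KO libraries, lowest in wild type 3 and highest in Fezf2 KO 1. That of 8 interneuron genes was -0.10, -0.16 and -0.03 against -0.01, 0.21 and 0.09, lowest in wild type 2 and highest in Fezf2 KO 2. That of 5 thalamic genes was 0.31, 0.16 and -0.42 against -0.53, 0.53 and -0.05, lowest in Fezf2 KO 1 and highest in Fezf2 KO 2. Each list thus shared part of the order of the 3 genes over libraries and differed in another part. No gene of these lists was under 3 reads in all libraries, but the thalamic list held low counts. Its gene Gbx2 had 22.5, 14.0 and 3.44 in wild type and 1.62, 22.5 and 3.53 in Fezf2 KO 1, 2 and 3. Lhx9 had 7.73 to 33.2 over all libraries, while the more abundant Tcf7l2 had 105 to 125 and Calb2 468 to 635. The list mean weighs each gene alike, so its order over libraries rests in part on counts near the floor. The part of these cell types in the values was not tested.

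Set side by side, the estimates for ligands and their receptors had mixed signs. For plexin D1 and Sema3e the estimates were 0.18 and -1.02, for neuropilin-1 and its ligands Sema3a and Sema3c 0.29, 0.20 and -0.22, and for plexin C1 and Sema7a 0.12 and 0.05. The difference between ligand and receptor changes was not tested.

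Partners and effectors of the pathway showed no called change. Of 48 genes tested, 0 were higher and 0 lower by limma (0.712% of all genes tested were called), 0 by edgeR and 0 by DESeq2, and 4 had an unadjusted p under 0.05, where 9.03% of all genes tested reach that level. The median log2 change was 0.03. Mical2, a flavoprotein that oxidises actin, had 2925 to 3222 in wild type and 2466 to 2842 in Fezf2 KO (log2 -0.22, SE 0.068, limma adjusted p = 0.312). Met, a receptor tyrosine kinase that associates with B plexins, had 1518 to 1682 and 1699 to 1928 (log2 0.21, SE 0.073, limma adjusted p = 0.396). The groups were apart for both genes.

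Fyn, the kinase downstream of plexin A2, had 13809 to 14412 in wild type and 14727 to 15751 in Fezf2 KO (log2 0.10, limma adjusted p = 0.506). Nrcam, an adhesion molecule in neuropilin-2 complexes, had 5203 to 5945 and 5801 to 6469 (log2 0.16, limma adjusted p = 0.525), with overlap. By group, the medians were 0.05 for 13 binding partners and co-receptors, 0.04 for 8 CRMP and MICAL effectors, 0.03 for 17 GTPases and regulators, and -0.02 for 10 kinases, adaptors and cytoskeletal genes.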

How the data were processed

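Total RNA libraries (Illumina TruSeq) were sequenced on the Genome Analyzer II, per the labels' protocols. Tools were Bowtie, STAR and DESeq on mm9 per the submitters' processing notes, and versions are not given in the sources used here. The deposited signal is a normalised count, reads of a gene over a size factor of its library, not scaled to length. A single read was worth 0.812 to 0.936, and 100% of the values were whole multiples of that within 0.006. A count of 0 allows 3 reads (2.44 to 2.81 normalised reads), for counting error only. Chi-square per degree of freedom between libraries was 8.86 to 33.04, so none was a copy.

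limma 3.58.1 (R 4.3.3, trended variance) was run on log2(value + 1) for the 17557 genes that reached 10 in 3 or more libraries, with genotype as the term and Benjamini-Hochberg adjustment at 0.05. Log2 changes are Fezf2 KO minus wild type and understate changes of low genes. Alternatives were edgeR 4.0.16 and DESeq2 1.42.0 on recovered reads, limma-voom, a pseudocount of 0.5, no filter, litter as a block, litter m1 alone, the mean of 13 striatal genes as a covariate, a threshold of 0.1 and each library left out. On simulated data with 200 changed genes among 17845 tested, limma recovered 56.0% of 1.5-fold and 88.2% of 2-fold changes with 6.66% false among calls. The simulated libraries were independent, without litter or tissue differences, and changes were placed only in genes above a minimum mean count. These shares are averages over genes and do not give the power for a single member.

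Replicate numbers follow sample order and name libraries, while the labels tie libraries by litter. Over 13582 genes, deviations from genotype means were correlated between each wild type and each Fezf2 KO library. Pairs of the same litter had r of -0.177, -0.073, 0.231, 0.262 and 0.263, and pairs of different litters had -0.226 to -0.043. The deviations of a genotype sum to 0, so these r are not independent. P-values measure the spread between pups.

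Members and gene lists were chosen with earlier results of these data known. Every member is accounted for, with all libraries given for the 6 smallest p and for members called in any setting, and for other members where 1 library decides the value. Pathway genes named are the 4 with the smallest p. Older symbols were matched through RefSeq synonyms (Drd1a and Grlf1). Exon lengths are unions over GENCODE M21 transcripts.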

Additional observations from a re-analysis of the deposited data

How the results depend on the processing

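No semaphorin, plexin or neuropilin gene was called higher or lower in any alternative other than DESeq2 (2 higher and 1 lower) and limma without Fezf2 KO 2 (1 lower, Sema3e, so that leaving out 1 library gave 0 to 1 lower). No pathway gene was called in any setting. The number of changed genes among all tested was 125, and 403 by DESeq2, 29 in litter m1 alone, 36 with the striatal covariate, 39 without both first replicates (chosen after seeing the data), 222 at an adjusted p under 0.1, and 60 to 128 without 1 library (60 when Fezf2 KO 3 was dropped, 72 for wild type 3 and 75 for wild type 2). The litter as a replicate block gave 138 genes in all and no member, and changed no other call. Of the 31 members, 19 kept the sign of their log2 change in all 17 alternatives fitted to them. The other 12 turned in at least 1 alternative, and of these Plxnb3 and Sema3d had the widest ranges over the fits without 1 library. In litter m1 alone these were Sema4f 0.001, Sema6b -0.010, Sema6c -0.001, Sema6d -0.011 and Plxnc1 -0.030. With the striatal covariate they were Sema4a 0.007, Sema4g 0.018, Sema6a 0.167, Sema6b -0.041, Sema6c -0.113, Sema7a -0.173 and Plxnb1 0.022. Without both first replicates they were Sema3d 0.178, Sema6a 0.017, Sema6c -0.011 and Sema7a -0.053. Over the 6 fits without 1 library the log2 change ran from -0.480 to 0.108 for Sema3d, -0.052 to 0.023 for Sema4f, -0.180 to 0.012 for Sema6a, -0.024 to 0.135 for Sema6c, -0.059 to 0.112 for Sema6d, -0.008 to 0.137 for Sema7a, -0.395 to 0.50 for Plxnb3 and -0.084 to 0.300 for Plxnc1. The cause was not tested. Plxnb3 and Sema3d had the lowest mean counts of the 31 members, with 33 to 118 and 46 to 106 normalised reads. The part of depth in their ranges was not tested.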

Other observations

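Genes with a profile over the 6 libraries like that of Sema3e were sought among 422 genes, by a rule chosen after values were seen. Their mean reached 100 normalised reads and their libraries spanned 2-fold or more. Assembled linc transcripts and genes with Gm-number or Rik symbols were left out. The most alike of the 422 were Gpr39 (Pearson r 0.996), Gabrd (0.995), Islr2 (0.994), Lypd1 (0.993), Bcl11b (0.987) and Trpc7 (0.980). They are given as a description, since all share the genotype difference and the same 6 libraries. Bcl11b, which is also in the layer 5 list, encodes CTIP2, a transcription factor of subcerebral and striatal neurons, and had 11760 to 14713 in wild type and 5534, 9755 and 7116 in Fezf2 KO 1, 2 and 3. Gabrd, a GABA-A receptor subunit gene, had 357 to 359 in wild type and 81.2, 196 and 128 in Fezf2 KO (log2 -1.49, SE 0.272, limma adjusted p = 0.0613). None of the 6 passed limma at 0.05, and each was lowest in Fezf2 KO 1 and, within that genotype, highest in Fezf2 KO 2.

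The profile most like that of Nrp2 by the same rule was that of Slc6a7, the brain proline transporter gene, with 968, 1036 and 502 in wild type and 833, 1605 and 1013 in Fezf2 KO (r 0.992). It was followed by Camk2d (0.980), Ntng1 (0.975), Trps1 (0.968), Cbln4 (0.958) and Slit3 (0.957). Slit3 encodes a guidance ligand of Robo receptors, and had 306, 451 and 144 in wild type and 324, 652 and 410 in Fezf2 KO. None of these 6 passed limma either, and in each wild type 3 was the lowest library and Fezf2 KO 2 the highest. This too is a description, since the genes were picked for their likeness to Nrp2 over the same 6 libraries.

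Summed levels of cell type lists not given above were 25828 to 26955 in wild type and 25831 to 28295 in Fezf2 KO for oligodendrocyte lineage genes, 3320 to 4144 and 3156 to 3542 for microglia, 20752 to 22232 and 19887 to 21258 for astrocytes. They were 7184 to 7813 and 6772 to 9317 for Cajal-Retzius genes, and 8533 to 10774 and 9420 to 9939 for subplate genes. The subplate sum hides its members: 5 of 7 (Cplx3, Nxph4, Ctgf, Tmem163 and Trh) were lower in Fezf2 KO by limma at an adjusted p under 0.05, with a median log2 change of -0.97 over the 7. Nr4a2, the most abundant gene of the list, had 3348 to 5595 in wild type and 7117 to 7521 in Fezf2 KO (log2 0.64, SE 0.177, limma adjusted p = 0.237).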
